A study of Rattus norvegicus with 8 samples.

Results

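The 10 genes described here encode proteins that build and steer the neuronal microtubule cytoskeleton and the growth cone: Map1a, Map1b, Map2, Mapt, Tubb3, Stmn1, Stmn2, Stmn3, Gap43 and Dclk1. They were chosen by gene symbol, with earlier results of these data known, and every probe set annotated with 1 of these symbols was taken. That gave 21 probe sets (19 from chip A, 2 from chip B) out of 31142 on both chips, and 10 of 13810 annotated genes. Expression was measured in total RNA of PC12 cells, a line of rat pheochromocytoma, a catecholamine-making tumour of the adrenal medulla. The 4 groups were forskolin on chip A, forskolin on chip B, no forskolin on chip A and no forskolin on chip B, with 2 arrays each, numbered replicate 1 and replicate 2. Forskolin is a plant compound that switches on adenylyl cyclases and so raises cyclic AMP. The sources used here give no dose, exposure time or medium and do not say what the inactive control of the title was. PC12 is a single tumour line, and no label ties the replicates to separate cultures, so the p-values measure only the spread between these arrays, which may be technical.

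Microtubules are hollow polymers of alpha and beta tubulin that stiffen axons and dendrites and serve as tracks for transport. Structural microtubule-associated proteins bind along them and stabilise them, whereas stathmins bind free tubulin dimers and favour disassembly. At the tip of a growing neurite, the growth cone couples dynamic microtubules to an actin network, and Gap43 is a membrane protein concentrated there. PC12 cells are a standard model of this biology because nerve growth factor makes them stop dividing and extend neurites. Cyclic AMP also promotes short neurites in these cells.

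The values are the authors' processed expression values, whose log base is not stated and was read as 2 from their range, and all changes are forskolin minus no forskolin. Within a chip the 4 array medians lay close together (range 0.021 on A and 0.025 on B). PC12 markers were present, with Th, which makes the catecholamine precursor, at 11.71 and 11.79 (log2) with forskolin, against 11.66 and 11.61 without it. Chga, a granule protein, measured 9.52 and 9.53 with forskolin, against 9.38 and 9.42 without it. Other markers of the same list, Dbh, Slc18a1 and Slc6a2, lay below the brightness filter. Summed on a linear scale over the 13 genes of the PC12 marker list on chip A, the markers gave 24870 and 25190 with forskolin, against 21280 and 21780 without it. Of its 10 tested genes, 2 rose, the transcription factors Gata2 and Phox2a, named after their values were seen, where 3.30% of all probe sets tested on chip A were called. Their changes were 1.35 and 0.41 (log2), whereas Gata3 measured -0.12 without a call. A linear sum weighs the brightest probe sets most, so it does not describe each gene of a list. The sums of the other marker lists moved little: fibroblast markers gave 5336 and 5490, against 5257 and 5325, glial markers 512 and 519, against 498 and 511, and blood and endothelial markers 267 and 274, against 261 and 261. Of these lists, 3 of 6 fibroblast genes, 2 of 4 glial genes and 1 of 3 blood and endothelial genes on chip A passed the filter, and their part in the results below was not tested. The fibroblast genes that passed were the bright Col3a1 (change 0.0145), Col1a1 (0.14) and Dcn (-0.023), none with a call. Known cyclic AMP targets showed that the arrays separated the treatments: Nr4a1 rose 6.82-fold, and Crem 1.84-fold on chip A and 5.62-fold on 1 of its 2 tested probe sets of chip B. The other Crem probe set there also rose, as did Fos on 1 of its 2 tested probe sets, but without forskolin they measured 6.25 and 5.67 (Crem) and 5.14 and 5.30 (Fos). Those levels lie near or below the filters described below, so no fold is given for them. The other Fos probe set measured 1.04-fold without a call.

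Of the 10 genes, only Dclk1 was called. Dclk1, a kinase with microtubule-binding doublecortin domains, rose 1.44-fold on 1 of its probe sets, while a second tested probe set for the same gene measured 1.05-fold without a call. The structural proteins Map1a and Map1b and the beta tubulin Tubb3 measured slightly above the arrays without forskolin, Mapt close to them, and the 3 stathmins slightly below them, none of these with a call. Map2 and Gap43 were too dim on all of their probe sets to be tested. In limma, 1 of the 13 tested member probe sets on chip A had an adjusted p under 0.05 (Benjamini-Hochberg), where 3.30% of all tested probe sets of that chip were called. The 1 tested probe set on chip B was not called, where 0.159% of the chip was.

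**Figure D1:**
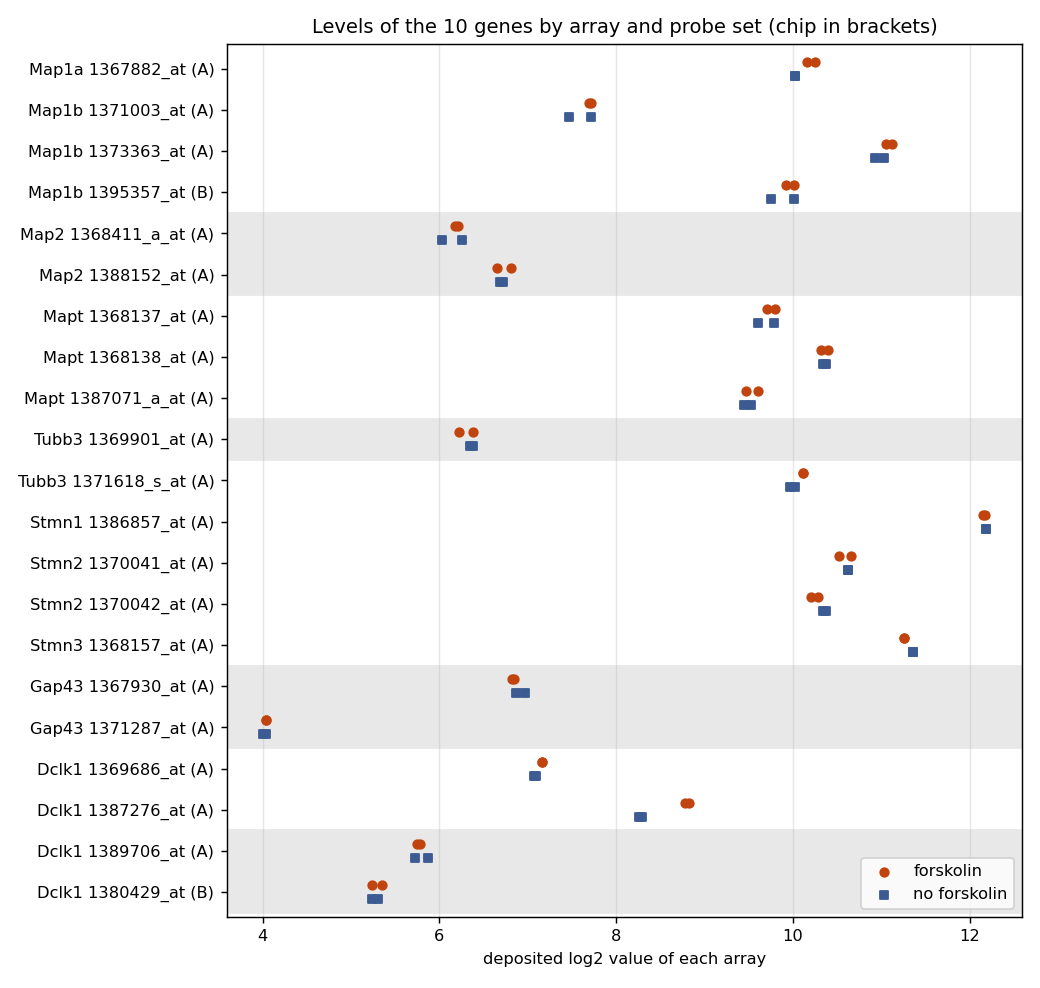
Deposited log2 value (horizontal axis) of each array for the 21 probe sets of the 10 genes, with forskolin arrays as circles above and arrays without forskolin as squares below, 2 of each. Shaded rows mark the 7 probe sets below the brightness filter, and only Dclk1 on 1387276_at shows a gap between the groups that is wide on this scale. Positions along the axis are brightness of different probes and do not rank the genes by abundance.

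The filter left out probe sets whose mean linear value lay under the 30th percentile of their chip, which is 7.02 (log2) on chip A and 6.02 on chip B. It kept 14 of the 21 member probe sets, and 8 of the 10 genes. Brightness depends on the probe sequence, so a level is compared here only with the same probe set in other arrays. No detection calls were used here, and how far a dim level lies above background is not known.

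Dclk1 (doublecortin-like kinase 1) joins doublecortin domains, which bind and bundle microtubules, to a serine/threonine kinase domain. In rat the gene is also known as Ania4 and Cpg16, names given to transcripts found as induced by activity in the brain. On 1387276_at, Dclk1 measured 8.78 and 8.83 (log2) in the forskolin arrays, against 8.26 and 8.29 in the arrays without forskolin. Both forskolin arrays lay well above both others, and the gap was many times the spread within either pair. The log2 change was 0.52 ± 0.043 (SE, n = 2 arrays a group), with a 95% interval of 0.43 to 0.62, or 1.34-fold to 1.54-fold. Here and below, SE and interval are limma's moderated ones, which also draw on the spread of the other probe sets of the chip. The limma adjusted p was 0.000198, and the probe set ranked 82 of 11106 on the chip by p.

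The other Dclk1 probe sets did not show this change. On 1369686_at the values were 7.17 and 7.16 with forskolin, against 7.10 and 7.08 without it. The groups did not overlap there either, but the change was 0.075 (95% interval -0.033 to 0.18, limma adjusted p = 0.454), and this probe set lay just above the filter. The 2 remaining probe sets were below the filter and untested. On 1389706_at the values were 5.75 and 5.78 with forskolin, against 5.72 and 5.87 without it, and the groups overlapped. On 1380429_at of chip B they were 5.23 and 5.35 with forskolin, against 5.30 and 5.23 without it, again overlapping.

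**Figure D2:**
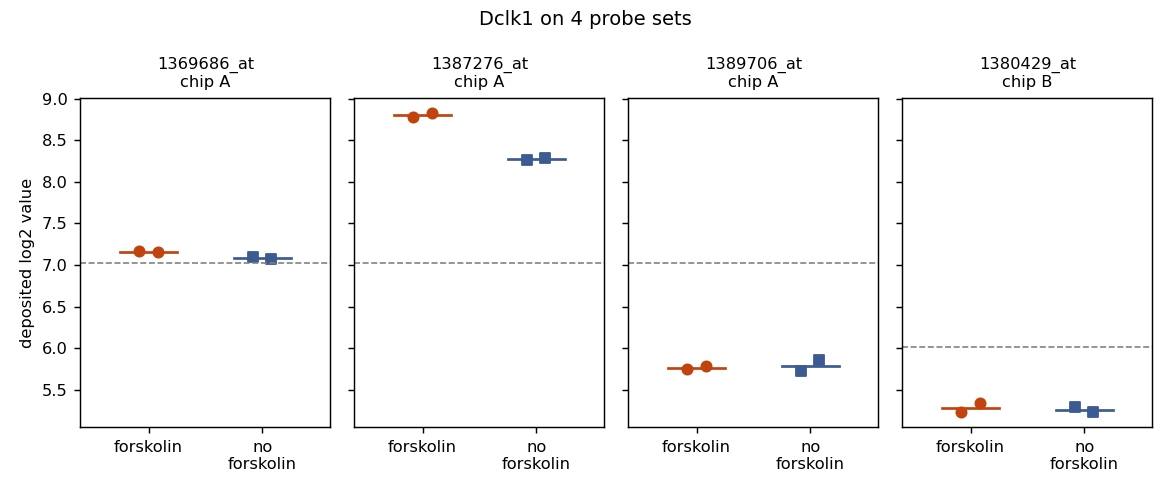
Deposited log2 values of Dclk1 on its 4 probe sets, with forskolin arrays (circles) left of arrays without forskolin (squares), 2 arrays each, a bar for each mean and a dashed line at the brightness filter of the chip (7.02 on chip A, 6.02 on chip B). The forskolin arrays stand at 8.78 and 8.83 on 1387276_at, against 8.26 and 8.29 without forskolin, and the other 3 probe sets lie lower with means at most 0.075 apart.

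The difference in response between the 2 tested Dclk1 probe sets was itself tested. For every pair of tested probe sets with the same gene symbol, the difference between them was taken on each array and fitted with limma across all 1592 pairs of chip A. The response of 1369686_at minus that of 1387276_at was -0.45 (log2, 95% interval -0.60 to -0.29, limma adjusted p = 0.000302). Such a difference was called in 1.51% of the pairs on the chip. With a block for replicate number in the fit, the Dclk1 difference kept its size but was not called (limma adjusted p = 0.0849). With the dim probe sets admitted, 1387276_at also differed from 1389706_at, by 0.55 (95% interval 0.39 to 0.71, limma adjusted p = 8.68e-05). The responses of 1369686_at and 1389706_at differed by 0.10 without a call (limma adjusted p = 0.643). The contrast with 1387276_at rests on that probe set again and is not separate support. At the dim level of 1389706_at a rise might not be measurable, which was not tested. The probe sets were designed from different source sequences. Which Dclk1 transcripts each of them reports was not determined here. The partner in the called pair, 1369686_at, also lay just above the filter. Whether its low level limited its change was not tested.

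RefSeq promoter windows, from 250 bases before to 50 after the annotated start (build GRCr8), were found for 7 of the 10 genes, and not used here for Mapt, Stmn2 and Gap43. The windows of 3 genes are shown because Dclk1 was the called member, Map1a had the smallest p among the uncalled ones and Stmn3 the smallest among those below 0. Capitals mark matches, on either strand, to TGACG, the core of the cyclic AMP response element, or to longer stretches of that element.
Dclk1: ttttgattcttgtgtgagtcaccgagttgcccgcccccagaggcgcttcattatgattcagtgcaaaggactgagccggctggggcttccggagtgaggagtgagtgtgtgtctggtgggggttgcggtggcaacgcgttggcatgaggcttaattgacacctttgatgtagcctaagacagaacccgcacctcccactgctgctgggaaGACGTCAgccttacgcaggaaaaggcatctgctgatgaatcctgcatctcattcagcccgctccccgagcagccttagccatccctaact
Map1a: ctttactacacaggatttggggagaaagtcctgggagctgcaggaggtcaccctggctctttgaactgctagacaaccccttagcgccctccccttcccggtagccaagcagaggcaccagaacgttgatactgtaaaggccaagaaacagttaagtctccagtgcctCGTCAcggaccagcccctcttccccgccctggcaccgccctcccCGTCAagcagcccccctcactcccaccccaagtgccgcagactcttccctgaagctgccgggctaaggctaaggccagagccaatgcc
Stmn3: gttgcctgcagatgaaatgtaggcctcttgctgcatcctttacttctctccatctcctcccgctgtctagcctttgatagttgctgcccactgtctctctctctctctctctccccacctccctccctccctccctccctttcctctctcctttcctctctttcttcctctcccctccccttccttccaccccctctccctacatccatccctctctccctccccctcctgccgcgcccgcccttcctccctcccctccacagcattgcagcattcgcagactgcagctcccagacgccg
The windows lie at chr2:141782634-141782933 (plus strand) for Dclk1, chr3:128722445-128722744 (plus strand) for Map1a and chr3:188802445-188802744 (minus strand) for Stmn3.

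The Dclk1 window holds TGACGTC, 7 of the letters of the full element TGACGTCA, read on the opposite strand as GACGTCA and beginning at position -40 from the start. TGACGTC or its complement is in 3.22% of all 33469 promoter windows, and the full element, which contains it, in 1.83%. No member window holds the full element. Map1a holds TGACG at 2 places, beginning at -82 and -38, and TGACG, which is also part of both longer motifs, is in 21.2% of all windows. The windows of Map1b, Map2, Tubb3, Stmn1 and Stmn3 hold none of these letters. The starts used for Dclk1, Map1a, Map2 and Stmn1 lie inside the annotated gene, downstream of its outermost start, and the windows of other starts were not used here. A match is a description of letters and not a measured site.

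Among the structural microtubule-associated proteins, Map1a had the largest change. Map1a, a large protein of mature axons and dendrites, measured 10.16 and 10.25 (log2) with forskolin, against 10.03 and 10.03 without it. Both forskolin arrays were higher, and they lay further from each other than the arrays without forskolin did. The change was 0.18 ± 0.042 (SE, n = 2), 1.13-fold, with a 95% interval of 0.08 to 0.27 that excludes 0, but the limma adjusted p over the chip was 0.0714. Map1a stood on 1 probe set, so no other probe set could be set beside it. Map1a passed the threshold with median centring (limma adjusted p = 0.0232) and under quantile normalization (0.0278). It did not pass with no filter (limma adjusted p = 0.0971) or with a stricter filter at the 50th percentile (0.0606). Nor did it pass without an intensity trend (limma adjusted p = 0.103) or with a block for replicate number (0.137). Leaving out 1 array at a time moved the change between 0.129 and 0.222 (log2).

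Map1b, the related protein of growing axons, was measured on 3 probe sets that gave 1.08-fold, 1.08-fold and 1.06-fold. On 1373363_at, bright on chip A, it measured 11.06 and 11.12 with forskolin, against 10.93 and 11.03 without it (change 0.11, 95% interval 0.0081 to 0.21, limma adjusted p = 0.252). The groups did not overlap on this probe set. On 1371003_at the values were 7.71 and 7.70 with forskolin, against 7.46 and 7.71 without it (change 0.12, limma adjusted p = 0.473). On chip B, 1395357_at measured 9.92 and 10.01 with forskolin, against 9.76 and 10.01 without it (change 0.079, 95% interval -0.17 to 0.33). The groups overlapped on these 2 probe sets. On all 3 the lowest array was no forskolin replicate 1 of its chip, and without that array the changes were 0.057, -0.0090 and -0.050. The arrays of this number on chips A and B are different ones, and no label ties them to 1 culture. Without no forskolin replicate 2, the change on 1371003_at was 0.24, with an adjusted p of 0.0499.

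Mapt encodes tau, which binds along axonal microtubules. Its 3 probe sets on chip A were designed from the same source sequence, so they are not independent. On 1368138_at, the brightest, it measured 10.32 and 10.40 with forskolin, against 10.34 and 10.37 without it. The groups overlapped on all 3, with changes of 0.0098, 0.055 and 0.061 and limma adjusted p from 0.642 to 0.935. The intervals of the 3 together reach from -0.083 to 0.20 (log2). Each of the 3 changed sign when 1 array was left out: without no forskolin replicate 1 the changes were -0.0046 on 1368138_at and -0.029 on 1368137_at, and without forskolin replicate 2 they were -0.032 on 1368138_at and -0.012 on 1387071_a_at. Map2, the protein of dendritic microtubules, lay below the filter on both probe sets. It measured 6.17 and 6.21 with forskolin, against 6.03 and 6.25 without it, on 1368411_a_at, and 6.65 and 6.81 with forskolin, against 6.69 and 6.72 without it, on 1388152_at. The groups overlapped on both Map2 probe sets.

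Tubb3 is the beta tubulin typical of neurons. On 1371618_s_at it measured 10.11 and 10.12 with forskolin, against 9.97 and 10.03 without it. Both forskolin arrays were higher, with a change of 0.12 (95% interval 0.027 to 0.20, 1.08-fold), but the limma adjusted p was 0.178. The ending _s_at marks a probe set whose probes can match more than 1 transcript, so related tubulins may share its signal. The other probe set, 1369901_at, was below the filter at 6.38 and 6.22 with forskolin, against 6.37 and 6.34 without it, and there the groups overlapped. With no filter, the responses of the 2 Tubb3 probe sets differed by -0.17 (log2, 1369901_at minus 1371618_s_at; unadjusted p = 0.0286, limma adjusted p = 0.323).

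Stmn1, Stmn2 and Stmn3, stathmins that bind tubulin dimers and are inhibited by phosphorylation, measured on average slightly below the arrays without forskolin. Stmn4, a stathmin from the wider lists below, did not, at 8.59 and 8.63 with forskolin, against 8.62 and 8.58 without it. Its change was 0.0065 (limma adjusted p = 0.963). Stmn1, the widely expressed member, measured 12.15 and 12.17 with forskolin, against 12.19 and 12.19 without it. The groups did not overlap, but the change of -0.025 (95% interval -0.088 to 0.038, limma adjusted p = 0.691) was smaller than its interval, and ranged from -0.037 to -0.013 with each array left out in turn. Its interval was the narrowest of the 14 tested probe sets, within 0.941-fold to 1.03-fold. Stmn3, a neuronal member, measured 11.26 and 11.26 with forskolin, against 11.36 and 11.36 without it. That is a change of -0.097 ± 0.030 (SE, n = 2), 0.935-fold, with replicates closer together than the groups and a limma adjusted p of 0.150.

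Stmn2, also called SCG10 and enriched in growth cones, was measured on 2 probe sets designed from the same source sequence. On 1370042_at it measured 10.21 and 10.29 with forskolin, against 10.34 and 10.38 without it, and the groups did not overlap. The change was -0.11 (95% interval -0.20 to -0.017, limma adjusted p = 0.216), and from -0.15 to -0.071 with each array left out in turn. On 1370041_at it measured 10.52 and 10.66 with forskolin, against 10.63 and 10.62 without it, and the forskolin arrays lay on both sides of the others. The change there was -0.035 (limma adjusted p = 0.763), and 0.036 without forskolin replicate 1. The 2 probe sets differed by 0.076 in response (95% interval -0.027 to 0.18, limma adjusted p = 0.546).

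Gap43, a substrate of protein kinase C at the growth cone membrane, lay below the filter on both probe sets. On 1367930_at it measured 6.82 and 6.85 with forskolin, against 6.96 and 6.86 without it, a difference of -0.079 with groups that did not overlap. On 1371287_at, among the dimmest 0.485% of chip A, it measured 4.04 and 4.04 with forskolin, against 4.004 and 4.04 without it. Neither value was tested in the filtered table. With no filter the 95% intervals were -0.20 to 0.045 and -0.072 to 0.10 (limma adjusted p = 0.526 and 0.898).

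**Figure D3:**
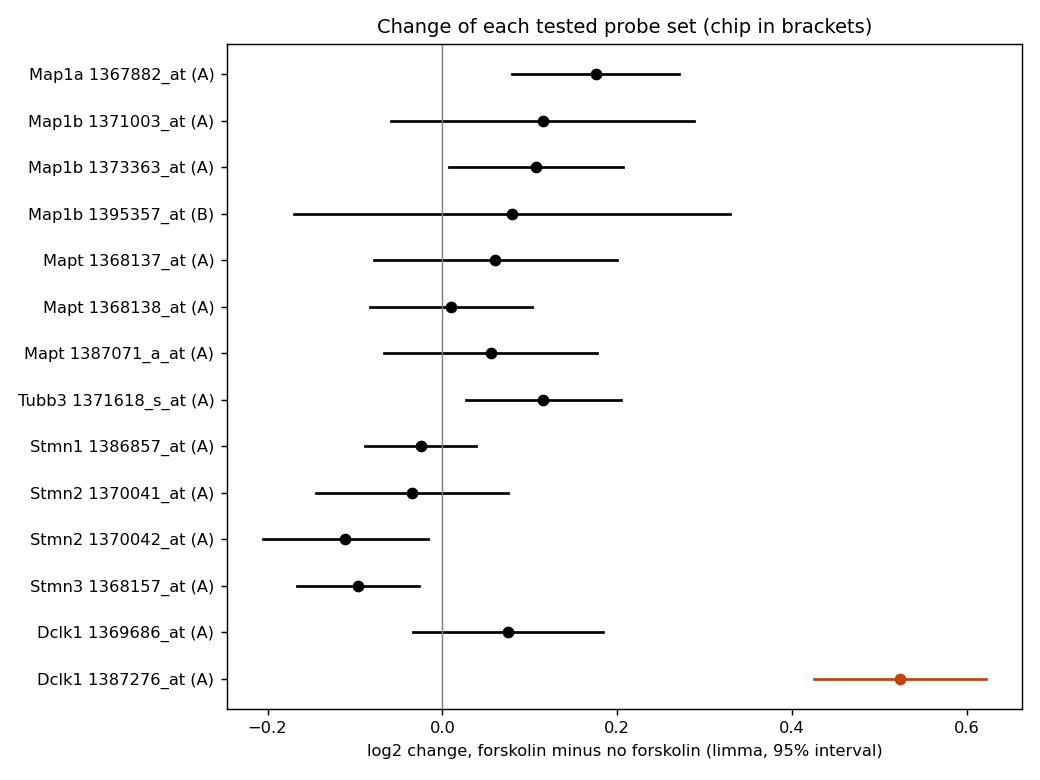
Log2 change of the 14 tested probe sets, forskolin minus no forskolin, with limma's 95% interval (n = 2 arrays a group; chip in brackets). Dclk1 on 1387276_at, in colour, is the called one at 0.52, and every other point lies between -0.11 and 0.18.

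Apart from Dclk1 on 1387276_at, the changes on chip A were small. Their intervals cover only the spread between these arrays, which may be technical. The 95% intervals of 10 of the 13 tested probe sets lay within 1.2-fold in both directions, and those of 12 within 1.5-fold. The median change of the 13 was 0.061, against -0.0082 for all tested probe sets, and the median size without sign was 0.097, against 0.048. An unadjusted p under 0.05 was found in 6 of the 13, where 17.4% of the chip had one. Of these, 4 were higher and 2 lower, where 7.10% and 10.3% of the chip were. The groups did not overlap in 8 of the 13, where 48.5% of the chip did not. Forskolin was higher in 5 of them and lower in 3, where the shares of the chip were 20.4% and 28.0%. These counts are over probe sets that share genes and arrays, and no test was made over the list. The members were chosen with earlier results of these data known, so the counts describe them and are not support for a response. On chip B the precision was lower, with a standard error of 0.11 for Map1b.

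**Figure D4:**
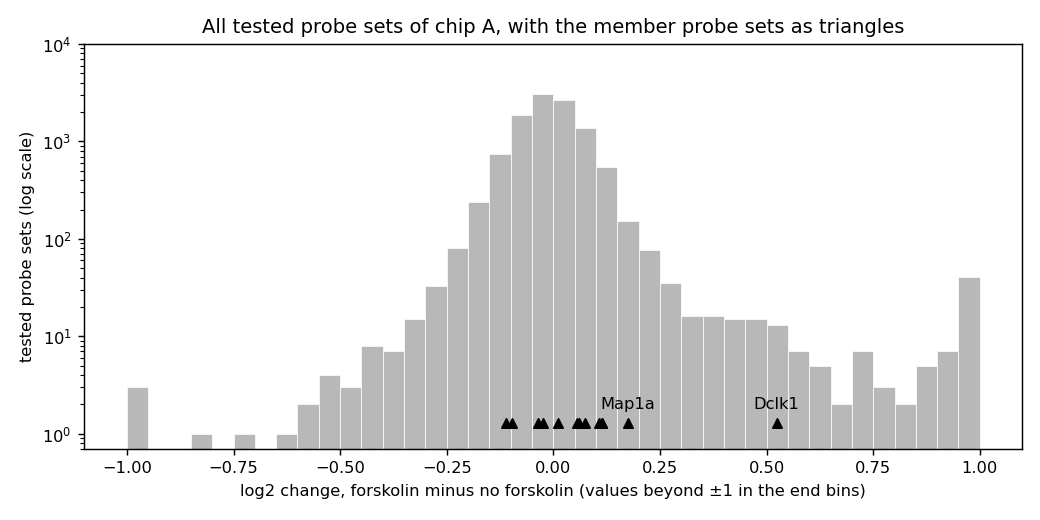
Number of tested probe sets on chip A (log scale) by log2 change, forskolin minus no forskolin, in bins of 0.05 with values beyond 1 in either direction in the end bins. Triangles mark the 13 tested member probe sets, of which 12 lie between -0.11 and 0.18 in the body of the distribution and Dclk1 lies at 0.52 in its sparse right part.

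Probe sets of the same gene can be compared where 2 or more were tested, which held for Dclk1, Map1b, Mapt and Stmn2 on chip A. All 6 pairs had changes of the same sign, where 61.9% of the 1592 pairs of the chip did. With no filter, 7 of 11 member pairs did, where 58.4% of 3085 pairs did. The opposite pairs were of Dclk1, Gap43 and Tubb3, each with a dim probe set. Among the 6 tested pairs, the count was 3 without no forskolin replicate 1. It was 5 when forskolin replicate 1 was left out and 4 when forskolin replicate 2 was, with pairs of Stmn2, Mapt and Map1b turning apart, while the share of all pairs stayed between 60.7% and 61.6%. The 3 pairs of Mapt share probe sets and a source sequence, and the signs of the Mapt changes are those of values near 0. The Dclk1 pair was called different, though not with a block for replicate number (limma adjusted p = 0.0849). The other 5 were not called, with differences between -0.045 and 0.076. Their 95% intervals reached from -0.16 to 0.18. When the tested probe sets of a gene were averaged before the fit, Dclk1 was still called (0.30, limma adjusted p = 0.00517), and Map1a had an adjusted p of 0.0568.

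Other genes of the same machinery were read from 5 lists, also chosen with earlier results of these data known. Of 98 listed genes, 80 were tested through their brightest probe set, 71 on chip A and 9 on chip B. Of these 80, 1 rose and none fell by limma, where the calls made up 3.30% of chip A and 0.159% of chip B. An unadjusted p under 0.05 was found for 4 higher and 5 lower genes, where 7.10% and 10.3% of chip A had one in these directions. Their median change was 0.0031, against -0.0082 over chip A. The gene that rose was Tuba4a, an alpha tubulin, at 10.50 and 10.62 with forskolin, against 10.15 and 10.06 without it. Its groups did not overlap, and the change was 0.45 ± 0.050 (SE, n = 2), 1.37-fold (limma adjusted p = 0.00137), the only call among 14 tested genes of tubulins and tubulin folding. Next in that list was Ttl, the ligase that restores tyrosine to alpha tubulin, with -0.17 (limma adjusted p = 0.0961).

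The other lists had no call. Of 22 other microtubule-binding and regulating proteins, the smallest p belonged to the kinase Gsk3b (0.15) and to Mapre3, which tracks growing microtubule ends (0.12), with limma adjusted p of 0.294 and 0.302. Of 22 growth cone and axon guidance proteins, 2 were lower and none higher at an unadjusted p under 0.05, where 10.3% and 7.10% of chip A were. They were Gprin1 (-0.10), which binds G proteins in growth cones, and the actin-binding Pfn2 (-0.15), with limma adjusted p of 0.235 and 0.262. Of 5 intermediate filament genes, Ina measured 0.12 and Nefm -0.051, with limma adjusted p of 0.314 and 0.385. Of 17 axonal transport motors, Dynlrb1, a light chain of dynein, measured -0.10 and the kinesin Kif3c 0.14, with limma adjusted p of 0.135 and 0.178. The medians of these 4 lists lay between -0.0022 and 0.018.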

How the data were processed

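Each chip was deposited as a table with 1 value per probe set and array. The sources used here do not say how the authors corrected, summarised or scaled the deposited values. The deposited values were read as log2, because natural logarithms would put 3063 values of chip A and 115 of chip B beyond a 16-bit scanner. Symbols came from the chips' annotation at GEO, updated by gene number through RefSeq (GRCr8), and 1 symbol was carried by 12783 probe sets of chip A and 7564 of chip B. Array medians lay within 0.1, so the authors' scaling was kept, and no pseudocount was added.

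Each chip was fitted alone with limma 3.58.1 in R 4.3.3 (lmFit, eBayes with an intensity trend, two-sided). P-values were adjusted by Benjamini-Hochberg over all tested probe sets of a chip (11106 for A, 10693 for B), and an adjusted p under 0.05 was a call. The median standard error was 0.045 on chip A and 0.089 on chip B, with 2 arrays a group on both. The cause of this difference was not tested. The fit was tested on simulated data. The members and lists were chosen with earlier results of these data known. All member probe sets are named, and of each list the calls or the 2 smallest p. Alternatives were scaling, filter, trend, each array left out, a replicate block and gene means. Deviations of same-numbered arrays correlated at 0.0034 on chip A and 0.20 on chip B. With only 2 numbers this does not show pairing.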

Additional observations from a re-analysis of the deposited data

How the results depend on the processing

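The rise of Dclk1 on 1387276_at was called under all 10 alternatives, with changes of 0.50 to 0.55 when each array was left out in turn (limma adjusted p from 1.97e-06 to 0.00138). Of 138 recomputed values of single probe sets, 127 kept their direction and their side of the threshold, 4 gained a call and 7 changed sign, all 7 among uncalled values. The count of called member probe sets on chip A, 1 as reported, was 2 with median centring and 2 under quantile normalization, with Map1a added in both (changes 0.172 and 0.177). It ranged from 1 to 2 with arrays left out, where the added probe set was Map1a without forskolin replicate 1 and Map1b on 1371003_at without no forskolin replicate 2. On chip B it was 0 throughout. Signs turned without forskolin replicate 1 for Stmn2 on 1370041_at (0.0355), and without forskolin replicate 2 for Mapt on 1368138_at (-0.0317) and 1387071_a_at (-0.0117). Without no forskolin replicate 1 they turned for Mapt on 1368137_at (-0.0292) and 1368138_at (-0.00462) and for Map1b on 1371003_at (-0.00904) and 1395357_at (-0.0504). Their changes with 1 array left out ranged from -0.106 to 0.0355 for Stmn2 on 1370041_at and, for Mapt, from -0.0292 to 0.15 on 1368137_at, -0.0317 to 0.0513 on 1368138_at and -0.0117 to 0.122 on 1387071_a_at. For Map1b they ranged from -0.00904 to 0.239 on 1371003_at and -0.0504 to 0.209 on 1395357_at. These values come from fewer arrays, and the cause was not tested further.

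The count of member pairs of probe sets with different responses, 1 as reported, was 2 of 11 pairs with no filter and 0 of 4 pairs with the stricter filter, which removes 1369686_at and with it the Dclk1 pair. With arrays left out it stayed at 1, with the Dclk1 difference between -0.48 and -0.42. With the replicate block the pair count was 0 (Dclk1 pair adjusted p = 0.0849), the Dclk1 call itself held (0.00537), and the calls on chip A numbered 159 higher and 46 lower, against 226 and 140 without the block. Over the 5 lists, 1 gene fell with median centring (Ttl), and with arrays left out the count that fell ranged from 0 to 1 (Pfn2 without forskolin replicate 1) and the count that rose from 1 to 2 (Ina without no forskolin replicate 2). Median centring moved the calls on chip A to 300 higher and 277 lower, or 52.0% higher, against 61.7% as reported. With each array left out in turn, chip A had 168 to 257 higher and 83 to 192 lower calls, the fewest lower ones without forskolin replicate 1 (83) and forskolin replicate 2 (85). Chip B, with 16 higher and 1 lower, had 37 higher and 57 lower (0.879% called) without no forskolin replicate 1, and 41 higher and 5 lower (0.43%) without no forskolin replicate 2. Depth in the sense of signal over background is unknown, which limits Map2, Gap43 and the dim probe sets of Tubb3 and Dclk1.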

Other observations

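Of the 98 listed genes of the microtubule and growth cone machinery, 9 were on the chips with all of their probe sets below the filter. Among them were Dcx, the doublecortin of migrating neurons, the light neurofilament gene Nefl, the axonal adhesion genes Nrcam and Cntn1, the Cdk5 activator gene Cdk5r1 and Dync1i1, a dynein intermediate chain. The others were Tuba8, Dpysl4 and the intermediate filament gene Vim. By contrast the middle neurofilament gene Nefm measured 12.64 and 12.65 (log2) with forskolin, against 12.67 and 12.71 without it. Prph, the intermediate filament of peripheral neurons, measured 12.21 and 12.26 with forskolin, against 12.20 and 12.25 without it. These values are brightness on different probe sets and give no order of abundance. Dclk2, the closest relative of Dclk1 in the lists, was tested on chip B and measured 7.36 and 7.51 with forskolin, against 7.34 and 7.01 without it. Its change was 0.26 ± 0.12 (log2, SE, n = 2, limma adjusted p = 0.977), without a call. Both forskolin arrays were higher, but 7.36 and 7.34 lay much closer together than the 2 arrays without forskolin did. Dclk2 has 3 probe sets on the chips, and only its brightest tested one was read.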
